A study of Saccharomyces cerevisiae with 12 samples.

Results

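The interaction of Ulp2 loss with passaging asks which genes changed differently between 50 and 500 generations in yeast cells with and without Ulp2. For each gene it is the change from 50 to 500 generations in *ulp2* null cells minus the same change in WT cells, which equals the strain difference at 500 generations minus that at 50 generations. All 12 libraries of the 12 in the series enter it, 3 in each of 4 groups called WT 50G, WT 500G, *ulp2* null 50G and *ulp2* null 500G. Genes were not chosen by a measured value. The description covers the 6435 tested genes that do not encode a cytosolic ribosomal protein (RP), out of 6572 tested genes and 7126 genes in the table.

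Both strains are haploid MATa budding yeast (*Saccharomyces cerevisiae*) with the deletion *ulp2Δ::HIS3*. All groups also share mutant alleles of *ura3*, *trp1*, *lys2*, *leu2* and *his3*, which serve as nutritional markers. The cells called WT therefore also lack the chromosomal *ULP2* gene and hold *ULP2* on the low-copy *URA3* plasmid YCplac33, and the *ulp2* null cells are described as holding the same plasmid without *ULP2*. According to the study, the *ULP2* plasmid was evicted by streaking cells on plates with FOA, and a plasmid was then put in by transformation. About 50 generations passed during these steps. The study lists cells with a reintroduced *ULP2* plasmid apart from WT cells, and does not describe the first 50 generations of WT cells separately. Later passaging, up to 500 generations, was by daily dilution in rich glucose medium (YPD). RNA was taken from growing cultures of the 50G and 500G cells. Whether the 3 libraries of a group came from separately passaged lines is not stated, so the p-values measure the spread between these samples. According to the study's description, low-passage *ulp2* null cells hold an extra copy of chromosomes I and XII that is gone in late cells, late *ulp2* null cells carry mutations in *UBC9* and *IFM1*, and late WT cells carry one in *BUB1*.

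Ulp2 is a nuclear protease that trims chains of SUMO, a small protein that is attached to other proteins by an E1 activating enzyme, the E2 enzyme Ubc9 and E3 ligases. Cells without it accumulate SUMO chains, grow slowly and lose chromosomes and plasmids more often. An extra chromosome copy generally raises the RNA of most of its genes, and cells with extra chromosomes are known to load their protein folding machinery. A negative interaction here means that the level in *ulp2* null relative to WT cells was lower at 500G than at 50G, and a positive interaction that it was higher.

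Levels are FPKM, fragments per kilobase of transcript scaled by the number of mapped fragments. The table holds no counts, so the depth of each library is unknown. *ULP2* was at 206, 217 and 207 for WT 50G and 162, 174 and 202 for WT 500G, against 0.0926, 0 and 0.118 for *ulp2* null 50G and 0.0543, 0.412 and 0.995 for *ulp2* null 500G. *URA3*, the marker of the plasmid, was 2071, 2169 and 2388 for WT 50G and 1523, 1608 and 1621 for WT 500G, but 45.2, 48.7 and 40.1 for *ulp2* null 50G and 36.7, 38.7 and 35.4 for *ulp2* null 500G. The strains thus differed in *URA3* as well as in *ULP2*, and these libraries cannot tell the 2 apart. The part of *URA3* or of the state of the plasmid in the strain differences was not tested. Markers of a cells were present in every library (*MFA1* between 314.6 and 1165 FPKM), as were *STE2* (20.5 to 52.96), *STE6* (8.21 to 16.1) and *BAR1* (9.52 to 22.8). Of the 5 α-cell markers, *SAG1* was between 23.3 and 32.9, above *STE6* and *BAR1*, *MF(ALPHA)2* between 6.16 and 18.4, *STE3* between 3.91 and 11.6, *MF(ALPHA)1* between 1.67 and 8.31 and *HMLALPHA1* between 0 and 1.17. Differences were tested on log2(FPKM + 1) with limma, with all 4 groups in the model, and adjusted p-values are by the Benjamini-Hochberg method over the 6572 tested genes. A gene was called at an adjusted p-value under 0.05. A group's 3 values are given in the order of its replicates, and a signed value given for a gene without further name is its interaction on the log2 scale. Log2 values on this scale understate the change of genes with low FPKM.

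The passage effect differed between the strains for 1494 of the 6572 tested genes, or 22.7%, with 640 positive (9.74%) and 854 negative (13%). RP genes made up 114 of the negative calls and 0 of the positive ones. That left 1380 other genes, 640 positive and 740 negative. Over 2-fold, 70 genes of all those tested were positive (1.07%) and 192 negative (2.92%), and 156 of the latter were not RP genes. By comparison, 40.6% of the tested genes changed with passage in WT cells, 54.1% changed with passage in *ulp2* null cells, 36.9% differed between the strains at 50G and 11% at 500G.

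Of the 1380 genes, 975 (70.7%) differed between the strains at 50G and had no call at 500G. Among them 572 were higher in *ulp2* null than in WT cells at 50G and 403 were lower. Another 139 genes differed at 500G only, 84 higher and 55 lower in *ulp2* null cells, and 96 differed at both passages in opposite directions. Read by passage, 626 genes (45.4%) had a called change in *ulp2* null cells only (408 fell and 218 rose), 221 in WT cells only (129 fell and 92 rose), and 147 in both strains in opposite directions. A call in one strain and not in the other is counted here only among genes whose interaction itself was called. A scaling of the libraries to an equal sum over the genes other than RP genes moved the median passage change of all genes by -0.35 in WT and -0.36 in *ulp2* null cells, but the median interaction by only -0.0047. Passage changes within a strain therefore rest on the scaling where they are small, and the number of genes with opposite passage changes became 78 under it. Without WT 50G replicate 2 that number was 96, and without *ulp2* null 500G replicate 2 the number that differed at 500G only was 90.

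**Figure D1:**
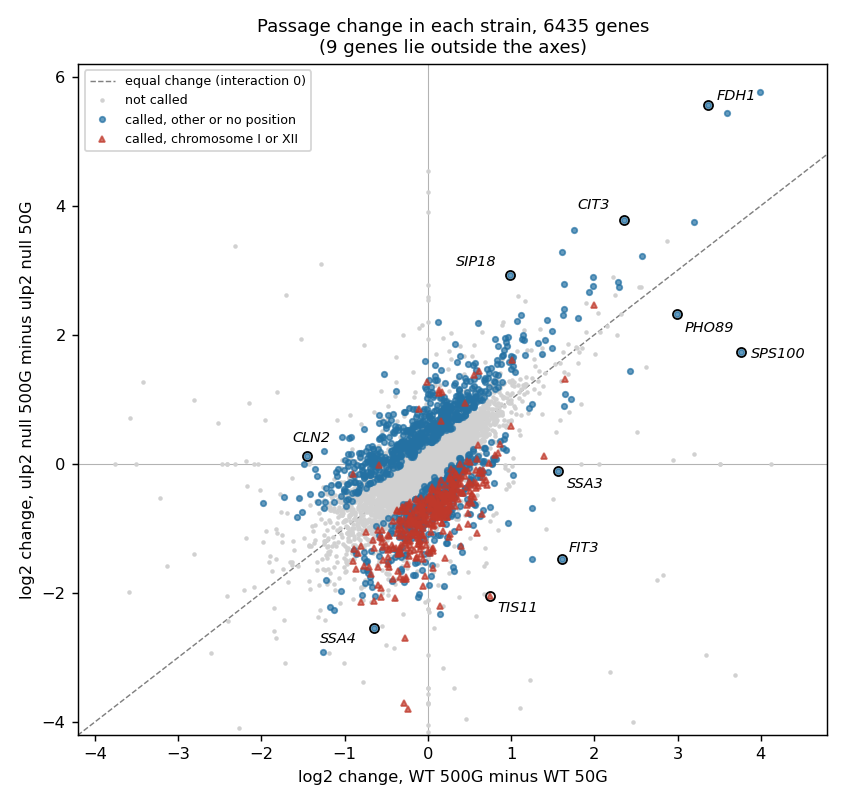
Passage change (500G minus 50G) on the log2 scale in WT (x axis) and *ulp2* null cells (y axis) for the 6435 genes other than RP genes, 9 of which lie outside the axes; the dashed line marks equal change, grey points were not called and coloured points were called for the interaction (red triangles on chromosomes I and XII, blue circles elsewhere). *FDH1* lies far above the line with 3.36 in WT and 5.55 in *ulp2* null cells, and *FIT3* lies below it with 1.61 and -1.48.

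**Figure D2:**
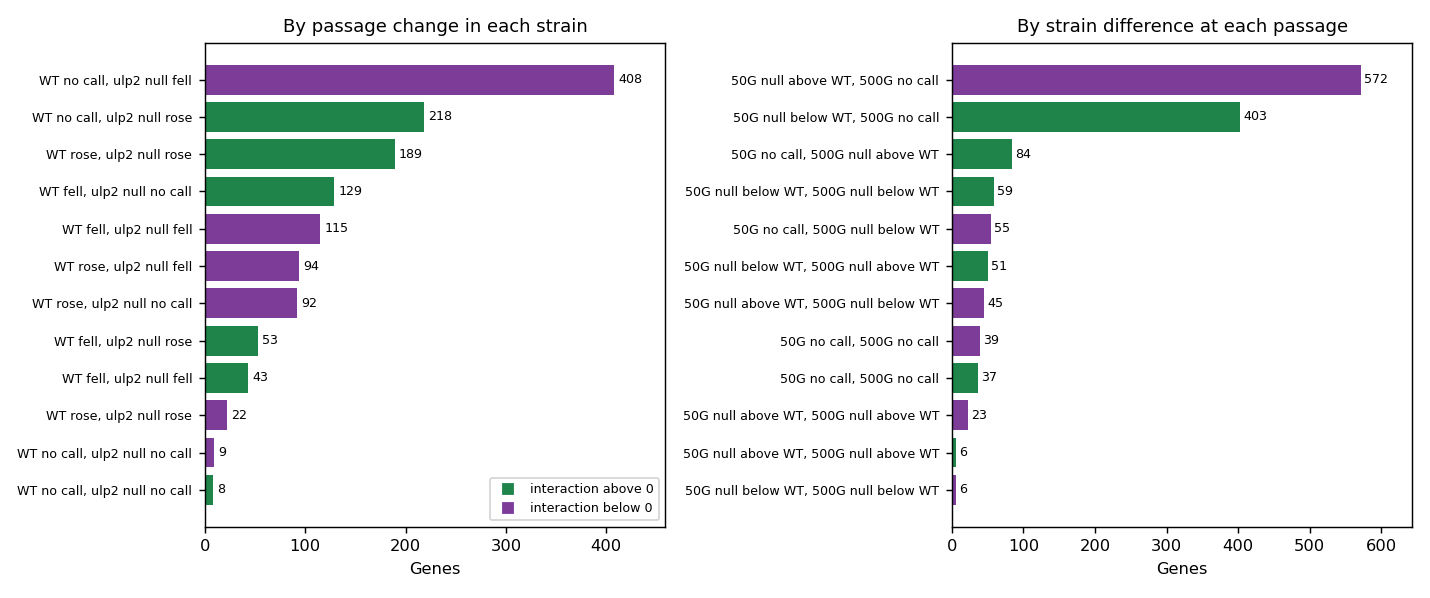
Number of genes (x axis) in each pattern among the 1380 called genes other than RP genes, by the passage change in each strain (left) and by the strain difference at each passage (right); green bars are positive and purple bars negative interactions. In the right panel the longest bars are the 572 genes higher and the 403 genes lower in *ulp2* null cells at 50G with no call at 500G.

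Genes on chromosomes I and XII held 372 of the 740 negative calls. On chromosome I, 48 of the 96 tested genes other than RP genes had a negative and 5 a positive interaction, and the median was -0.63. On chromosome XII, 324 of 500 were negative and 8 positive, with a median of -0.67. On the other 14 chromosomes the medians lay between -0.03 and 0.06 and between 12.1% and 21.2% of the genes were called. The medians were similar left (-0.71, 206 genes) and right (-0.64, 274 genes) of the ribosomal DNA on chromosome XII. On both chromosomes the shift came with the *ulp2* null passage: the median strain difference was 0.58 and 0.67 at 50G and -0.06 and 0.02 at 500G. DNA copy number was not measured in these libraries, and an extra chromosome copy and regulation of single genes cannot be told apart for the genes on these 2 chromosomes. Outside them, 927 of 5269 genes with a position were called, 603 positive (11.4%) and 324 negative (6.15%), and the median was 0.03. These 2 percentages are the background for the gene lists that follow. The members named in each list are the up to 4 with the smallest adjusted p-value, and further members given by their value alone were chosen after their values were seen.

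**Figure D3:**
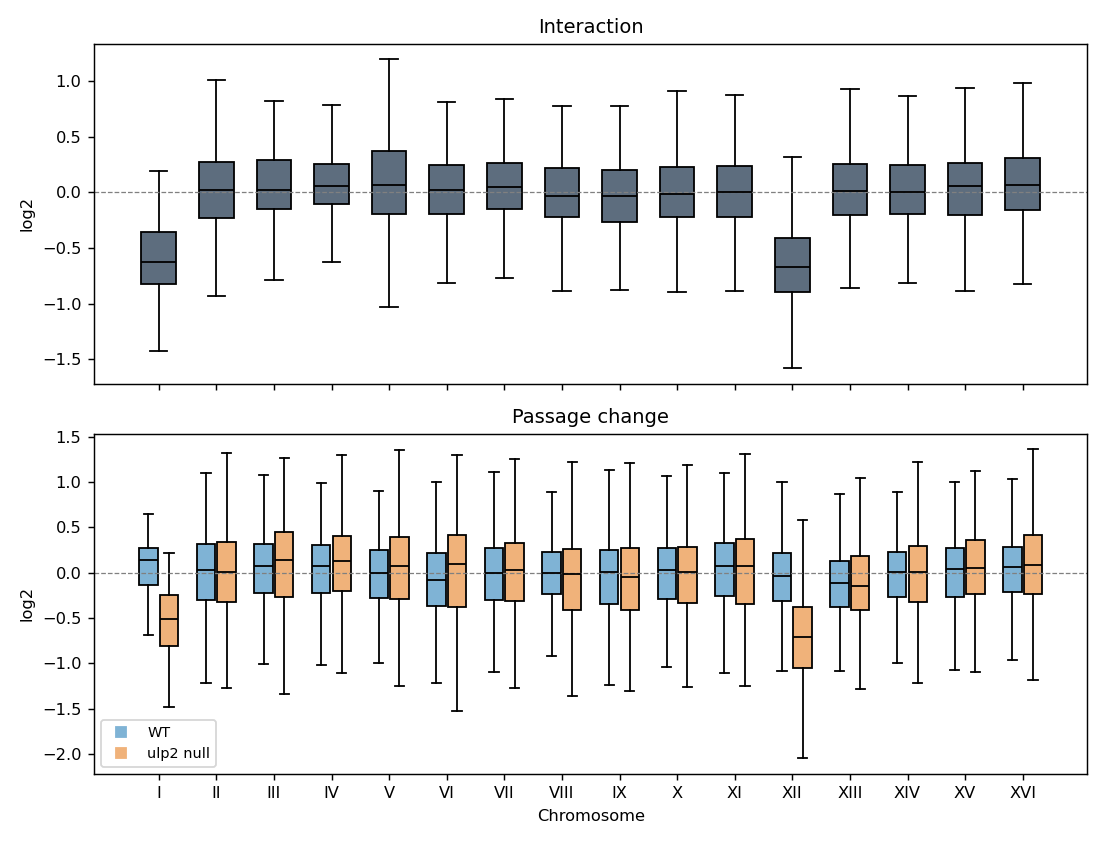
Interaction (top) and passage change in each strain (bottom, WT blue and *ulp2* null orange) on the log2 scale for the genes of each chromosome other than RP genes; boxes span the quartiles, lines mark medians and whiskers reach the last value within 1.5 box lengths. Chromosomes I and XII have median interactions of -0.63 and -0.67, and only the *ulp2* null boxes of these 2 chromosomes lie wholly below 0.

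Iron regulon genes were among the largest negative interactions, and 3 of them moved in opposite directions in the 2 strains at the deposited scaling. *FIT3* and *FIT2* encode cell wall mannoproteins that help retain iron-bound siderophores, *FET3* encodes the multicopper oxidase of high-affinity iron uptake, and *TIS11* (also named *CTH2*) encodes an RNA-binding protein that speeds the decay of mRNAs for iron-using proteins when iron is scarce. These genes are known targets of the iron-sensing activators Aft1 and Aft2, whose sites hold the letters TGCACCC. The 300 bases before the start codons of *FIT3*, *FIT2* and *TIS11* are shown because these 3 genes had called passage changes of opposite sign at the deposited scaling. Under the equal-sum scaling the WT rise of *TIS11* was 0.38 (adjusted p = 0.0547) and not called. They were read 5′ to 3′ from the R64 assembly, and capitals mark TGCACCC or its reverse complement.
*FIT3*, chrXV:1061056-1061355, minus strand: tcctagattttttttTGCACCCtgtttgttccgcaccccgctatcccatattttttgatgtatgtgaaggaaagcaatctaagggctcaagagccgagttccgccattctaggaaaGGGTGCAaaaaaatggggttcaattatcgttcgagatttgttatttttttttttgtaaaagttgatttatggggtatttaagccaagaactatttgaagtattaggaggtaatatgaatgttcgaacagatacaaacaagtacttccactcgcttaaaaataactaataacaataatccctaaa
*FIT2*, chrXV:1059231-1059530, plus strand: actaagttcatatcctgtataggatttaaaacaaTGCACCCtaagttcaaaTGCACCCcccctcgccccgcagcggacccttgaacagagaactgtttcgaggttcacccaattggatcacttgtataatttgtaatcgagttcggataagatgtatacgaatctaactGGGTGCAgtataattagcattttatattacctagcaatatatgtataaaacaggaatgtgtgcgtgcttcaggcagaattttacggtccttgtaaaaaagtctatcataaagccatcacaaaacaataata
*TIS11*, chrXII:416659-416958, minus strand: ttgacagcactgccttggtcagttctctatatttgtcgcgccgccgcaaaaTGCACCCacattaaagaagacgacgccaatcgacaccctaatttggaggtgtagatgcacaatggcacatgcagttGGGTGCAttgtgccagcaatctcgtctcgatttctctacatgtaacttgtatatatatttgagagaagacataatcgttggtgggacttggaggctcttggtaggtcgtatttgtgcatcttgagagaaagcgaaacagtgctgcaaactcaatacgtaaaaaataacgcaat
*FIT3* and *TIS11* had 2 matches each and *FIT2* had 3. Of the 20 tested iron regulon genes, 12 (60%) held a match in this window, against 77 of 5890 tested protein-coding genes (1.31%). A match is a description of the letters and was not tested for binding.

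*FIT3* was 500.04, 797 and 748 FPKM at 50G and 1926, 2137 and 2058 at 500G in WT cells, and 2148, 2520.3 and 2519.7 at 50G and 832, 919 and 816 at 500G in *ulp2* null cells. WT cells were low at 50G and high at 500G, *ulp2* null cells were the reverse, and the groups of a strain did not overlap. The interaction was -3.09 (SE 0.21, adjusted p = 1.41e-05), with a passage change of 1.61 in WT (adjusted p = 2.18e-05) and -1.48 in *ulp2* null cells (adjusted p = 1.61e-05). *TIS11*, on chromosome XII, was 33.2, 34.8 and 36.96 FPKM at 50G and 52.03, 58.4 and 68.8 at 500G in WT cells, and 98.4, 103 and 109 at 50G and 20.1, 26.5 and 26.7 at 500G in *ulp2* null cells, and its interaction was -2.80 (SE 0.17, adjusted p = 1.22e-05). The *ulp2* null libraries were the highest of all at 50G and the lowest of all at 500G. *FIT2* was 682, 699.8 and 718 FPKM at 50G and 1149, 1215 and 1163 at 500G in WT cells, and 995, 973 and 1029 at 50G and 655, 665 and 563 at 500G in *ulp2* null cells. Its interaction was -1.42 (SE 0.10, adjusted p = 1.53e-05), from 0.75 in WT and -0.67 in *ulp2* null cells. For *FET3* the levels were 94.5, 98.3 and 93.7 FPKM at 50G and 88.01, 81.6 and 87.7 at 500G in WT cells, and 132, 125 and 130.2 at 50G and 40.3, 48.8 and 43.2 at 500G in *ulp2* null cells, with no call in WT cells (-0.15, adjusted p = 0.113) and a fall in *ulp2* null cells (-1.53, adjusted p = 5.73e-08). The interaction was -1.38 (SE 0.10, adjusted p = 1.99e-05). Under the equal-sum scaling *FET3* fell in WT cells too (-0.52, adjusted p = 0.000816).

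Across the list, 9 of 20 iron genes had a negative and 1 a positive interaction, with a median of -0.56 (-0.02 over all tested genes). Outside chromosomes I and XII the counts were 6 negative and 1 positive of 16, with a median of -0.49. The other negative members were the siderophore transporter *ENB1* (-1.09), the low-affinity iron transporter *FET4* (-0.62) and the copper transporter *CCC2* (-0.57), which loads Fet3. On chromosome XII, where the median was -0.67, the ferric reductase *FRE1* (-1.06) and the vacuolar iron transporter *SMF3* (-0.73) were negative as well. The mitochondrial iron carrier gene *MRS4* was the positive one (0.40). The permease gene *FTR1*, the partner of *FET3*, had -0.18 (SE 0.23, adjusted p = 0.62) and was not called. Of the 12 genes with a TGCACCC match 7 were negative and 0 positive. Of the 8 without one 2 were negative, *FRE1* and *SMF3*, and 1 positive. Among all tested genes 17 of the 77 with a match were negative, and 785 of the 5813 without one. The 77 include the 12 iron genes and the 17 include their 7 negative calls, so this count is not separate from the list.

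The copper metallothionein genes were negative too. *CUP1-1* and *CUP1-2* bind excess copper and lie in a tandem repeat on chromosome VIII. *CUP1-1* was 4982, 6236 and 6259 FPKM at 50G and 5735, 5826 and 4554 at 500G in WT cells, and 16243, 17787 and 15607 at 50G and 4259, 3634 and 3945 at 500G in *ulp2* null cells. Its *ulp2* null 50G libraries were all above the other 9, and the interaction was -1.95 (SE 0.17, adjusted p = 4.08e-05). The values of the near-identical *CUP1-2* (-1.91) are not independent of it, and how reads were shared between the copies is uncertain. YHR054C, in the same repeat on chromosome VIII, had -1.97. The number of repeat units was not measured.

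**Figure D4:**
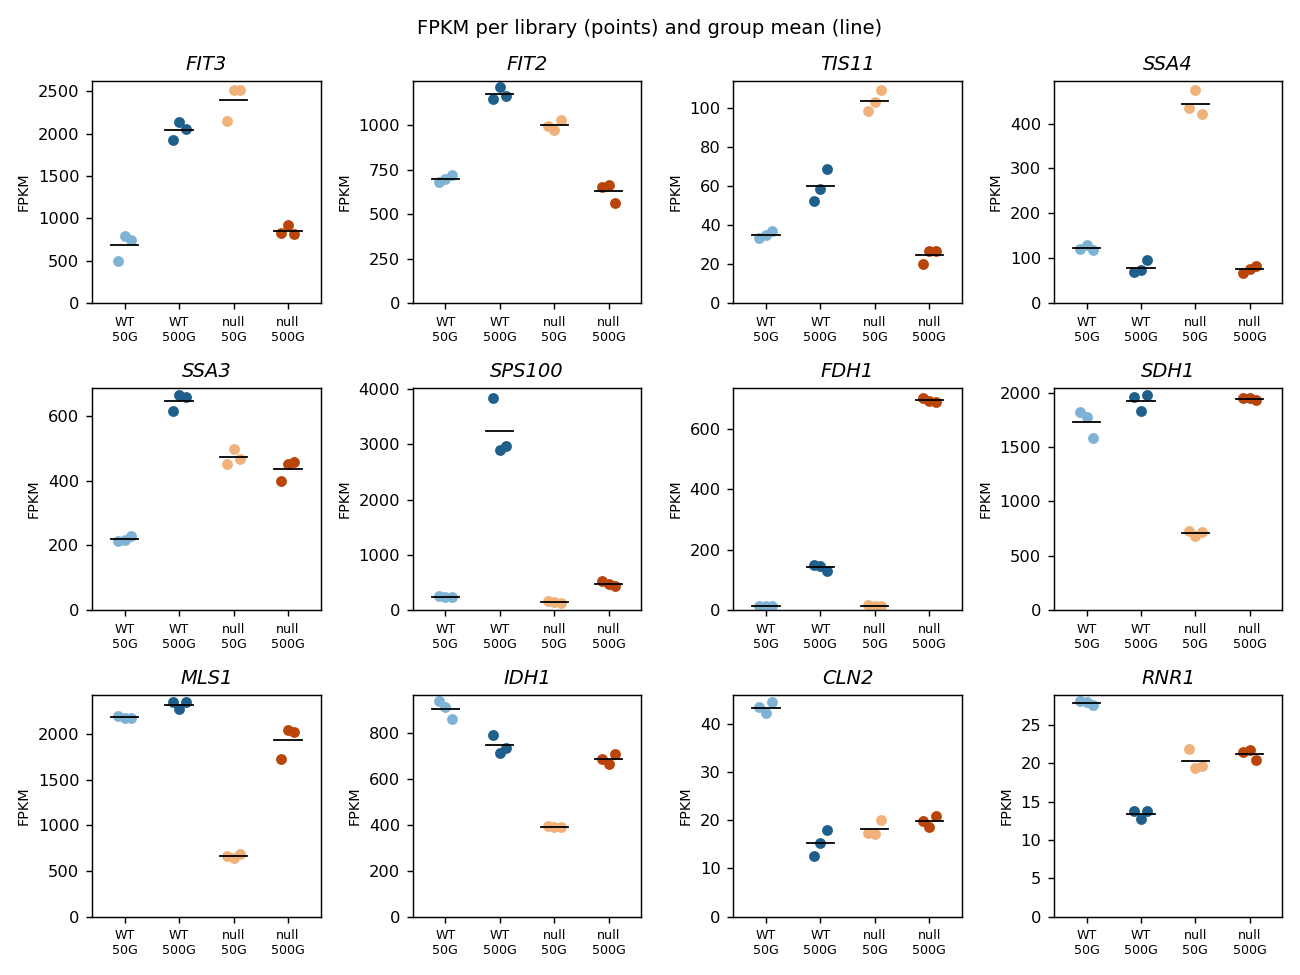
FPKM (y axis, from 0) of 12 genes in each of the 12 libraries; points are libraries and lines group means, with WT in blue and *ulp2* null in orange. At the deposited scaling *FIT3*, *FIT2* and *TIS11* rose with passage in WT and fell in *ulp2* null cells, *SDH1*, *MLS1* and *IDH1* were lowest in the *ulp2* null 50G libraries, and *CLN2* and *RNR1* were highest in the WT 50G libraries.

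Among the lists other than RP genes, heat shock chaperones had the most negative median outside chromosomes I and XII. Chaperones of the Hsp70, Hsp90 and Hsp104 families fold and disaggregate proteins, and the activator Hsf1 drives many of them through heat shock elements, repeats of nGAAn units. *SSA4* is an inducible Hsp70 whose promoter is shown as the gene of the list with the largest interaction, with the pair of units TTCNNGAA in capitals.
*SSA4*, chrV:364289-364588, plus strand: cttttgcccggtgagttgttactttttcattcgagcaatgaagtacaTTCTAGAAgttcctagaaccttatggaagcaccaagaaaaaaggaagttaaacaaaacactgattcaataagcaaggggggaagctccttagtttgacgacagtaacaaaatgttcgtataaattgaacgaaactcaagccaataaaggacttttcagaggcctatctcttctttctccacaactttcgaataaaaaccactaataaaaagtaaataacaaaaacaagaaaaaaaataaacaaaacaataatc
GAANNTTC or TTCNNGAA, each of which is its own reverse complement, was in the 300-base window of 19 of the 25 list members (76%) and of 1327 of 5890 genes (22.5%). Of the 25 genes, 16 had a negative and 0 a positive interaction by limma, with a median of -0.80. At an unadjusted p under 0.05 the counts were 18 and 0. On chromosomes other than I and XII they were 13 and 0 of 20 at that threshold, where 578 of all 5269 genes were negative. Called by limma there were 11 negative of these 20, with a median of -0.67. Of the 19 with a match 14 were negative, and of the other 6, 2 were. Among all tested genes 217 of the 1327 with a match were negative, and 585 of the 4563 without one. The 1327 include the 19 list members.

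*SSA4* was 122, 129.5 and 119 FPKM at 50G and 69.5, 72.8 and 94.996 at 500G in WT cells, and 435, 474 and 422 at 50G and 66.7, 76.2 and 83.1 at 500G in *ulp2* null cells. The 3 *ulp2* null 50G libraries were more than 3 times as high as any other, and the other groups lay between 66.7 and 129.5. The interaction was -1.90 (SE 0.17, adjusted p = 4.2e-05). *SSA3*, another inducible Hsp70 gene, followed a different course. It was 212, 215 and 228 FPKM at 50G and 614, 665 and 658 at 500G in WT cells, and 452, 498 and 467 at 50G and 398, 450.2 and 459 at 500G in *ulp2* null cells. It rose with passage in WT cells (1.56, adjusted p = 1.2e-07) with no call in *ulp2* null cells (-0.12, adjusted p = 0.189), and the interaction was -1.68 (SE 0.10, adjusted p = 1.22e-05). *SSA3* fell in *ulp2* null cells under the equal-sum scaling (-0.50, adjusted p = 0.000765). *BTN2*, a protein sorting factor for misfolded proteins, had -1.65. The Hsp90 gene *HSP82* had -1.04, the Hsp70 nucleotide exchange factor gene *FES1* -1.10, and the Hsp40 gene *SIS1* -0.98. On chromosomes I and XII, *HSP104* (-1.66), *SSA2* (-1.41), *CPR6* (-1.34), *SSA1* (-1.31) and *HSP60* (-0.90) were all called, and their 5 values had a median of -1.34, against -0.63 and -0.67 for all genes of chromosomes I and XII. The mitochondrial Hsp70 gene *SSC1* (0.05) and the small heat shock gene *HSP26* (-0.09) were not called.

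In the endoplasmic reticulum, *KAR2* encodes the Hsp70 of its lumen and *ERO1* the oxidase that drives disulfide bonds. *KAR2* was 161.4, 179.9 and 168 FPKM at 50G and 127, 132 and 142 at 500G in WT cells, and 355, 357 and 329 at 50G and 127, 136 and 134 at 500G in *ulp2* null cells, and its interaction was -1.04 (SE 0.10, adjusted p = 5.31e-05). *ERO1* was 35.6, 35.7 and 32.8 FPKM at 50G and 13.6, 15.1 and 17.6 at 500G in WT cells, and 88.2, 86.5 and 82.8 at 50G and 18.5, 17.5 and 15.3 at 500G in *ulp2* null cells, and its interaction was -1.14 (SE 0.14, adjusted p = 0.000246). In both genes the *ulp2* null 50G libraries were above all others, and at 500G the strains did not differ by the test (adjusted p = 0.9 and 0.37). *SIL1* (-0.59) and *LHS1* (-0.53), exchange factors of Kar2, were negative as well. The list of 14 genes of the unfolded protein response as a whole had 4 negative and 1 positive call and a median of -0.05. *HAC1*, which encodes the activator of the response (0.09) and the disulfide isomerase gene *PDI1* (-0.02) were not called, and the inositol synthesis gene *INO1* was positive (0.57).

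Respiration and the use of carbon sources other than glucose made up the largest block of positive interactions. All 11 genes of the TCA cycle were positive, with a median of 0.57. So were 26 of 41 genes of the respiratory chain and ATP synthase (2 negative, median 0.53), 11 of 18 of the glyoxylate cycle and gluconeogenesis (0 negative, median 0.59) and 11 of 15 of peroxisomal fatty acid beta-oxidation (1 negative, median 0.57). At 50G the median strain differences of these 4 lists were -0.80, -0.63, -0.59 and -0.51, and at 500G -0.13, -0.12, -0.08 and 0.06. The genes thus were lower in *ulp2* null cells at 50G, and the medians were near those of WT at 500G. The equal-sum scaling left these 4 medians at 0.57, 0.53, 0.58 and 0.57, but it turned the median WT passage change of the TCA list from 0.34 to -0.04 and that of the respiratory list from 0.32 to -0.06. Among the TCA genes aconitase *ACO1* had 0.83, fumarase *FUM1* 0.78 and *IDH2*, the partner of *IDH1*, 0.74.

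*SDH3* and *IDH1* are shown as the genes of the respiratory and TCA lists with the largest interaction, since Hap2/3/4/5, the activator of respiratory genes, binds boxes with the letters CCAATNA. Capitals mark this or its reverse complement.
*SDH3*, chrXI:179367-179666, plus strand: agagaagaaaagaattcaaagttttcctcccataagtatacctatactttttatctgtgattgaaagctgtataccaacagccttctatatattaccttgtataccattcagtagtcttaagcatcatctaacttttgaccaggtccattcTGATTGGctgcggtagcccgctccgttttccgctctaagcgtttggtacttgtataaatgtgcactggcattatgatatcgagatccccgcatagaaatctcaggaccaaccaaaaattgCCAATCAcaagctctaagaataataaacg
*IDH1*, chrXIV:559003-559302, minus strand: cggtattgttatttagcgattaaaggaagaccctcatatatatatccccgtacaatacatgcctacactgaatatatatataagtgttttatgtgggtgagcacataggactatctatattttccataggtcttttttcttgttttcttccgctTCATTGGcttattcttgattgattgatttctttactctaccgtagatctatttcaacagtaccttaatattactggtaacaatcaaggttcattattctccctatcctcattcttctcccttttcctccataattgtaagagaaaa
The box was in the window of 8 of the 11 TCA genes (72.7%) and 28 of the 41 respiratory genes (68.3%), against 881 of 5890 genes (15%). Within the respiratory list 15 of the 28 genes with a match were positive and 11 of the 13 without one. Of all 881 genes with a match 149 were positive and 112 negative, and of the 5009 without one 461 and 690. The 881 include the matched genes of both lists.

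*SDH1* and *SDH3* encode subunits of succinate dehydrogenase, which serves both the TCA cycle and the respiratory chain. *SDH1* was 1829, 1777 and 1581 FPKM at 50G and 1961, 1834 and 1983 at 500G in WT cells, and 725, 683 and 718 at 50G and 1958, 1949.8 and 1935 at 500G in *ulp2* null cells. The 3 *ulp2* null 50G libraries were below all others, and the 500G groups of the strains overlapped. The interaction was 1.30 (SE 0.09, adjusted p = 1.9e-05), and the strains did not differ by the test at 500G (0.02, adjusted p = 0.9). *SDH3* was 3192, 3341 and 3141 FPKM at 50G and 4786, 4003 and 3474 at 500G in WT cells, and 1162, 1082 and 943 at 50G and 4528, 3339 and 3710.4 at 500G in *ulp2* null cells, and its interaction was 1.52 (SE 0.19, adjusted p = 0.000337). *IDH1*, a subunit of the NAD-linked isocitrate dehydrogenase, was 939, 914 and 858 FPKM at 50G and 790.2, 712 and 734 at 500G in WT cells, and 394, 391.7 and 390.3 at 50G and 685, 665 and 706 at 500G in *ulp2* null cells. It fell with passage in WT cells (-0.28, adjusted p = 0.00448), rose in *ulp2* null cells (0.80, adjusted p = 1.98e-06) and had an interaction of 1.08 (SE 0.09, adjusted p = 2.77e-05). *CYC1*, the aerobic form of cytochrome c, was 1112, 1221 and 1289.6 FPKM at 50G and 692, 755 and 717 at 500G in WT cells, and 459.7, 484 and 468 at 50G and 581, 513 and 523 at 500G in *ulp2* null cells. It fell in WT cells (-0.74, adjusted p = 3.29e-05) and rose slightly in *ulp2* null cells (0.19, adjusted p = 0.0474), which became -0.18 (adjusted p = 0.0633) under the equal-sum scaling. Its interaction was 0.93 (SE 0.11, adjusted p = 0.000168).

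The 2 negative members of the respiratory list were *CYC7* (-1.05) and *COX5B* (-0.62), the isoforms of cytochrome c and of cytochrome c oxidase subunit Vb that are known to be used in low oxygen, while their aerobic partners *CYC1* (0.93) and *COX5A* (0.76) were positive. Both *CYC7* (1.54, adjusted p = 1.41e-06) and *COX5B* (1.21, adjusted p = 5.31e-07) were higher in *ulp2* null than in WT cells at 50G. *NDE2* and *NDE1*, external NADH dehydrogenases, had 0.92 and 0.49, and the ATP synthase subunit genes *ATP1*, *ATP2* and *ATP7* had 0.68, 0.68 and 0.76.

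In the glyoxylate list, *MLS1* encodes malate synthase. It was 2194, 2174 and 2176 FPKM at 50G and 2344, 2270.4 and 2344 at 500G in WT cells, and 659.5, 647 and 683 at 50G and 1728, 2043 and 2026 at 500G in *ulp2* null cells, and the interaction was 1.45 (SE 0.10, adjusted p = 1.3e-05). WT cells did not change with passage by the test (0.09, adjusted p = 0.334), and *ulp2* null cells rose toward the WT level. Under the equal-sum scaling *MLS1* fell in WT cells (-0.29, adjusted p = 0.022). *CIT3* and *PDH1*, neighbouring genes on chromosome XVI for citrate and 2-methylcitrate enzymes of propionate breakdown, rose in both strains and more so in *ulp2* null cells. *CIT3* was 280.3, 260.1 and 261 FPKM at 50G and 1461, 1364 and 1304 at 500G in WT cells, and 93.9, 92.6 and 91.6 at 50G and 1378, 1239 and 1259 at 500G in *ulp2* null cells, and its interaction was 1.43 (SE 0.09, adjusted p = 1.22e-05), and *PDH1* had 1.67 (SE 0.12, adjusted p = 1.63e-05). *ICL1*, isocitrate lyase, had 0.90, and *PCK1*, the gluconeogenic PEP carboxykinase, had 0.61. The activator genes *CAT8* (-0.06), *ADR1* (0.03) and *SIP4* (0.05) of this program were not called. The pattern searched for the carbon source response element was strict and matched 14 of the 5890 windows (0.238%). It matched 0 of the windows of the 18 genes, where so rare a pattern could hardly be found. Bases further upstream than 300 were not searched, so absence of the element cannot be read from this.

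At the deposited scaling all 15 beta-oxidation genes rose with passage in both strains. Under the equal-sum scaling *CAT2* was no longer called in WT cells (0.11, adjusted p = 0.29). Passage changes of single genes under that scaling are given only for members chosen by adjusted p-value. *POX1*, acyl-CoA oxidase and the entry step of the pathway, was 85.7, 84.6 and 84.3 FPKM at 50G and 301, 239 and 258 at 500G in WT cells, and 62.02, 50.7 and 54.6 at 50G and 387, 390.1 and 385 at 500G in *ulp2* null cells. Its interaction was 1.15 (SE 0.13, adjusted p = 0.000169), and *ulp2* null cells were below WT at 50G (-0.60, adjusted p = 0.000421) and above it at 500G (0.55, adjusted p = 0.00445). *CAT2*, carnitine acetyltransferase, had 1.06 (SE 0.09, adjusted p = 4.01e-05). *FOX2* (0.73) and *POT1* (0.57), the later enzymes of the cycle, and *PEX11* (0.86), which divides peroxisomes, were positive. The fatty acid importer subunit gene *PXA2* was negative (-0.31), a call that held in 3 of the 12 fits that leave out 1 library.

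Apart from the snoRNA gene *SNR56*, which was listed at 0 in 6 libraries, the largest positive interaction among called genes belonged to *FDH1*, formate dehydrogenase, which detoxifies formate. *FDH1* was 13.6, 12.8 and 12.2 FPKM at 50G and 148, 146 and 131 at 500G in WT cells, and 15.4, 13.6 and 12.7 at 50G and 702, 692 and 691 at 500G in *ulp2* null cells. At 50G the strains did not differ by the test (0.10, adjusted p = 0.379), both rose, and at 500G *ulp2* null cells were higher by 2.29 (adjusted p = 2.92e-08), for an interaction of 2.19 (SE 0.11, adjusted p = 8.32e-06). Under the equal-sum scaling the difference at 50G was called (0.21, adjusted p = 0.038). *FDH2* (1.78) and YPL276W (1.85), which the R64 annotation lists as pseudogenes and which together form a disrupted second copy, moved alike, and reads may be divided among these near-identical copies. *SIP18*, a hydrophilin that protects against drying, was 15266, 14664 and 16055 FPKM at 50G and 30257, 34196 and 27022 at 500G in WT cells, and 1779, 2335 and 2168 at 50G and 17195, 13758 and 16740.00 at 500G in *ulp2* null cells, and its interaction was 1.94 (SE 0.18, adjusted p = 4.79e-05). Its strain difference was -2.88 at 50G and -0.94 at 500G, so that *ulp2* null cells stayed below WT at both. *ATO2*, a putative ammonium and acetate transporter, crossed from below to above WT: its levels were 812, 695 and 701 FPKM at 50G and 1284, 1039 and 1044 at 500G in WT cells, and 414, 335 and 363 at 50G and 1718, 1729.5 and 1590.3 at 500G in *ulp2* null cells, and its interaction was 1.58 (SE 0.15, adjusted p = 7.14e-05). *DPC7*, a small mitochondrial protein gene, had 1.88 (SE 0.19, adjusted p = 0.000104). YMR046C (1.63) is a Ty1 retrotransposon gene with many close copies, and its value is uncertain.

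*ARG1*, argininosuccinate synthase of arginine synthesis, was the largest positive member of the amino acid list. It was 268, 291 and 284 FPKM at 50G and 224, 208 and 214 at 500G in WT cells, and 78.1, 87.8 and 90.6 at 50G and 181, 197 and 184 at 500G in *ulp2* null cells, and its interaction was 1.51 (SE 0.10, adjusted p = 1.22e-05). Together with *ARG56* (1.09), also of arginine synthesis, *GLT1* (1.28), glutamate synthase, and *GLY1* (0.88), threonine aldolase, it belonged to 13 positive and 2 negative genes of 57 (median 0.08). Nitrogen catabolite genes had 9 positive and 3 negative calls of 26 (median 0.38). Of these the ammonium transporter *MEP2* had 1.49, urea amidolyase *DUR12* 1.10, the general amino acid permease *GAP1* 0.88 (called in 2 of the 12 fits that leave out 1 library), the proline permease *PUT4* 0.88 and the repressor *DAL80* -1.12. *CAR2* (-0.86) and *PUT1* (-0.83), the other negative members, lie on chromosome XII.

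G1 cyclin genes were also positive, by another course: they fell with passage in WT cells and had no called fall in *ulp2* null cells at the deposited scaling. Under the equal-sum scaling *PCL1* (-0.55, adjusted p = 0.000581) and *PCL2* (-0.50, adjusted p = 0.000159) fell there too, and *CLN1* had -0.14 (adjusted p = 0.155). *CLN1* and *CLN2* encode the G1 cyclins that start the cell cycle, *PCL1* and *PCL2* the G1 cyclins of the kinase Pho85. *CLN2* was 43.5, 42.1 and 44.4 FPKM at 50G and 12.5, 15.4 and 18.02 at 500G in WT cells, and 17.3, 17.2 and 19.9 at 50G and 19.8, 18.6 and 20.9 at 500G in *ulp2* null cells. The WT 50G libraries were all at or above 42.1, and the other 9 were between 12.5 and 20.9. The interaction was 1.58 (SE 0.16, adjusted p = 0.000107), with -1.46 in WT (adjusted p = 6.29e-06) and 0.12 in *ulp2* null cells (adjusted p = 0.396). *PCL1* was 61.3, 62.1 and 61.5 FPKM at 50G and 28.6, 29.8 and 26.9 at 500G in WT cells, and 34.1, 38.8 and 38.5 at 50G and 28.7, 34.7 and 34.4 at 500G in *ulp2* null cells, and its interaction was 0.91 (SE 0.12, adjusted p = 0.000417). *CLN1* (0.89, SE 0.08, adjusted p = 6.08e-05) and *PCL2* (0.64) were positive as well. Of 20 cyclin and cell cycle genes 9 were positive and 2 negative (median 0.35), and outside chromosomes I and XII 9 of 16 were positive and 0 negative (median 0.46). The median passage change of the list was -0.66 in WT and -0.24 in *ulp2* null cells. The upstream G1 cyclin gene *CLN3*, on chromosome I, fell in both strains (-0.66 and -0.49) and its interaction was not called (0.16, SE 0.11, adjusted p = 0.361). Mitotic regulators *SWI5* (0.85), *CDC5* (0.59) and *CDC20* (0.52) were positive, while the S-phase cyclin genes *CLB5* (0.38) and *CLB6* (0.32) and the mitotic cyclin gene *CLB2* (0.30) were not called.

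*RNR1*, the large subunit of ribonucleotide reductase and a gene of late G1, also fell in WT cells with no call in *ulp2* null cells at the deposited scaling, but under the equal-sum scaling it fell in the latter too (-0.30, adjusted p = 0.00811). It was 28.1, 27.9 and 27.5 FPKM at 50G and 13.8, 12.7 and 13.7 at 500G in WT cells, and 21.8, 19.3 and 19.7 at 50G and 21.5, 21.7 and 20.4 at 500G in *ulp2* null cells, and the interaction was 1.06 (SE 0.10, adjusted p = 4.79e-05). *RNR2* (0.54, SE 0.08, adjusted p = 0.00103) and *RNR4* (0.61, SE 0.10, adjusted p = 0.00142), the small subunits, instead rose in both strains and more so in *ulp2* null cells. Cohesin genes *MCD1* (1.12, SE 0.22, adjusted p = 0.00386), *IRR1* (0.49) and *ECO1* (0.91, SE 0.13, adjusted p = 0.000673) were positive. In the cohesin and condensin list 4 of 15 were positive and 1, *SMC6* on chromosome XII (-0.53), was negative. Among 18 spindle checkpoint and kinetochore genes the kinase *MPS1* (0.57) and *SPC25* (0.59) were positive. Histone genes had 1 positive call of 10, *HTB2* (0.75, SE 0.12, adjusted p = 0.00136), and the DNA damage kinase *DUN1* had 0.76. The letters ACGCGT, the MluI box of late G1 genes and their own reverse complement, were in the windows of 0 of the 20 cyclin genes. They were in those of 6 of the 15 DNA damage genes (40%), against 208 of 5890 (3.53%). Of these 6, which did not include *RNR1*, 1 was positive and 1 negative, and of the other 9, 4 and 1. Among all tested genes 36 of the 208 with a match were positive and 15 negative, and of the 5682 without one 574 and 787.

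Genes that separate daughter from mother cells went the other way. *CTS1* is the chitinase that cuts the septum, *DSE4* a glucanase of the daughter side and *EGT2* a wall protein of the same step. *DSE4*, on chromosome XIV, was 25.5, 24.3 and 24.7 FPKM at 50G and 31.3, 30.9 and 29.2 at 500G in WT cells, and 34.5, 33.95 and 35.1 at 50G and 21.7, 21.1 and 20.0002 at 500G in *ulp2* null cells. The *ulp2* null libraries were above WT at 50G and below at 500G, and the interaction was -0.98 (SE 0.08, adjusted p = 3.28e-05). *EGT2* had -0.73 (SE 0.10, adjusted p = 0.000663), *DSE3* -0.56, and *CTS1*, on chromosome XII, -1.31 (SE 0.10, adjusted p = 2.47e-05). These 4 of the 11 genes were negative and 0 positive by limma, with a median of -0.35. At an unadjusted p under 0.05, 8 were negative and 0 positive. Outside chromosomes I and XII the counts at that threshold were 7 and 0 of 10, where 578 of the 5269 genes were negative. *DSE3* was not called under the equal-sum scaling (adjusted p = 0.0683).

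*NCW2* and *AFB1* lie on chromosome XII and had larger negative interactions than its median. *NCW2*, a cell wall protein gene, was 158, 246 and 239 FPKM at 50G and 156, 169 and 199.9 at 500G in WT cells, and 784, 1101 and 1137 at 50G and 129.99, 169.6 and 158 at 500G in *ulp2* null cells, and its interaction was -2.43 (SE 0.28, adjusted p = 0.00018). *AFB1*, which encodes a secreted barrier to a-factor, was 17.01, 18.2 and 19.1 FPKM at 50G and 19.6, 21.3 and 19.5 at 500G in WT cells, and 63.1, 78.2 and 76.9 at 50G and 17.1, 17.03 and 11.6 at 500G in *ulp2* null cells, and its interaction was -2.35 (SE 0.19, adjusted p = 3.28e-05). In both genes the *ulp2* null 50G libraries were above all others. *SPS100*, a spore wall protein gene on chromosome VIII, was 251, 228 and 228 FPKM at 50G and 3839.7, 2907 and 2976 at 500G in WT cells, and 167, 138 and 123 at 50G and 516, 464 and 435 at 500G in *ulp2* null cells. It rose in both strains, by 3.77 in WT and 1.73 in *ulp2* null cells, and the interaction was -2.04 (SE 0.19, adjusted p = 5.04e-05). *IMD2*, IMP dehydrogenase of guanine synthesis, had low levels and close paralogs: it was 4.84, 5.37 and 5.004 FPKM at 50G and 6.90, 5.36 and 4.94 at 500G in WT cells, and 17.03, 17.6 and 14.5 at 50G and 2.30, 2.08 and 3.03 at 500G in *ulp2* null cells, and its interaction was -2.47 (SE 0.22, adjusted p = 4.2e-05). YPR145C-A, of no known function, was 27.6, 44.7 and 53.8 FPKM at 50G and 71.5, 102 and 129 at 500G in WT cells, and 129.7, 183 and 162 at 50G and 48.3, 53.9 and 65.5 at 500G in *ulp2* null cells. It changed in opposite directions in the 2 strains, with an interaction of -2.73 (SE 0.37, adjusted p = 0.000503). YLR339C (-1.88), with no position here, behaved alike. The study lists it beside the RP gene *RPP0* on a plasmid with a fragment of chromosome XII. The part of *RPP0* reads and of chromosome copy number in its level was not tested. YLR466C-B has no position here either, and its name has the form used for genes of chromosome XII. It was listed at 52.1, 9.88 and 8.97 for WT 50G, 32.2, 59.2 and 19.5 for WT 500G and 61.9, 86.6 and 28.7 for *ulp2* null 50G, and at 0 in all 3 *ulp2* null 500G libraries (adjusted p of the interaction 0.000443). YOR073W-A (1.91), YOR108C-A (-2.08) and YMR141W-A (-1.93) were also among the largest called interactions and have no position here.

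Glucose metabolism was split. Of 24 genes of glycolysis and fermentation 10 were positive and 4 negative (median 0.30). *HXK2*, the hexokinase that also takes part in glucose repression, was 141, 138 and 137 FPKM at 50G and 76.5, 75.3 and 85.7 at 500G in WT cells, and 178, 173 and 167 at 50G and 164, 172 and 167 at 500G in *ulp2* null cells. It fell in WT cells (-0.80, adjusted p = 6.27e-06) with no call in *ulp2* null cells (-0.04, adjusted p = 0.595), and the interaction was 0.76 (SE 0.09, adjusted p = 0.000199). *HXK2* fell in *ulp2* null cells under the equal-sum scaling (-0.42, adjusted p = 0.00183). *TDH1* (0.97, SE 0.13, adjusted p = 0.000418) and *ADH1* (0.84, SE 0.14, adjusted p = 0.00169) were positive, and the pyruvate decarboxylase genes *PDC1* (-0.49), *PDC5* (-1.02) and *PDC6* (-0.73) were negative, the first 2 of them on chromosome XII. *GLG2*, which primes glycogen, was the largest of 6 positive genes of 16 in trehalose and glycogen metabolism (1.18, SE 0.10, adjusted p = 3.28e-05), of which 3 were called under the equal-sum scaling. Of the 7 glucose repressor genes 0 were called by limma and 0 had an unadjusted p under 0.05, *MIG1* with -0.53 (SE 0.28, adjusted p = 0.213) and *NRG2* with -0.35 (SE 0.20, adjusted p = 0.246). Of 19 hexose transporter and sensor genes *HXT4* was positive (1.02) and *HXT9*, which has close paralogs, negative (-0.85), calls that held in 3 and 4 of the 12 fits that leave out 1 library. That of *HXT4* was lost under the equal-sum scaling (adjusted p = 0.0512).

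**Figure D5:**
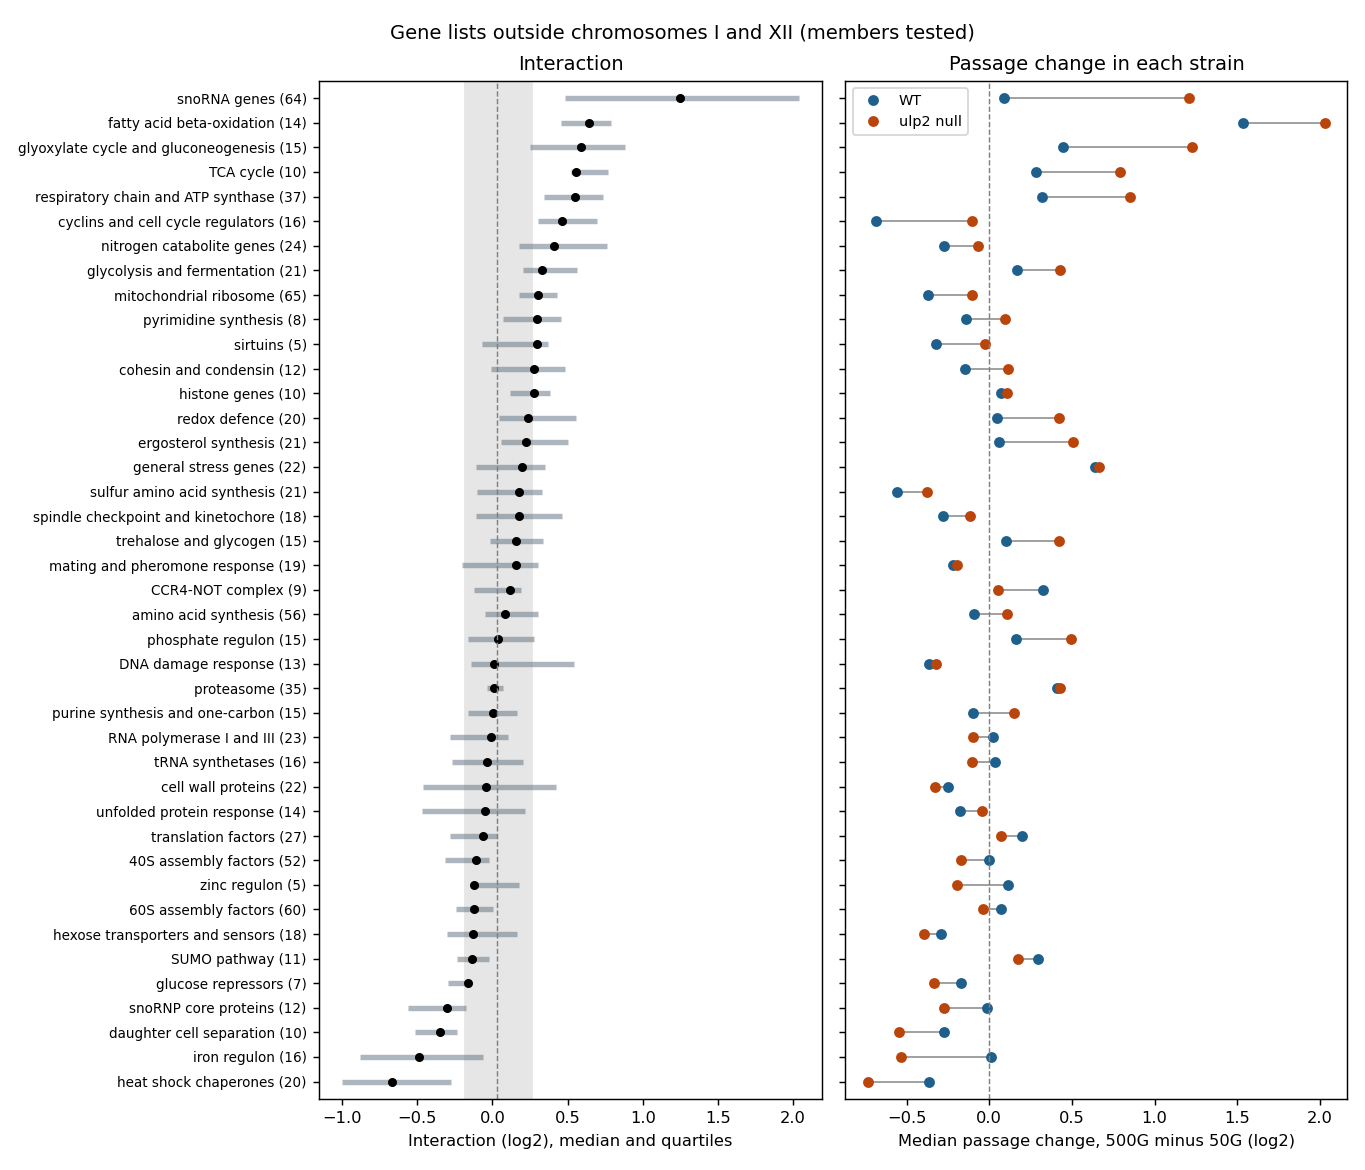
Gene lists outside chromosomes I and XII, with the number of tested members in parentheses. Left, median interaction (point) and quartiles (bar) on the log2 scale, beside the median and quartiles of all genes of the other chromosomes (dashed line and grey band); right, median passage change in WT (blue) and *ulp2* null cells (orange). Heat shock chaperones lie at the bottom with -0.67 and the metabolic lists at the top with 0.55 to 0.64, below the snoRNA genes at 1.25, of which 2 were called.

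Outside chromosomes I and XII, ribosome assembly factors and RNA polymerase I and III genes were nearer the background. Of 58 factors of 40S assembly 11 were negative and 1 positive (median -0.17), but 6 of the 11 lie on chromosomes I and XII, and elsewhere 5 of 52 were negative. *SOF1*, on chromosome XII, had -1.50 (SE 0.10, adjusted p = 1.22e-05), and *RRP9*, on chromosome XVI, -0.72 (SE 0.12, adjusted p = 0.00148). For 60S assembly 9 of 69 were negative (median -0.15), 2 of 60 outside chromosomes I and XII. RNA polymerase I and III genes had 2 negative calls of 23, *RPC82* (-0.77, SE 0.14, adjusted p = 0.00249) and *RPA34* (-0.78, SE 0.16, adjusted p = 0.00538). Core proteins of snoRNPs, the particles that modify ribosomal RNA, had 5 negative and 0 positive calls of 14 (median -0.39): *CBF5* (-1.24, SE 0.10, adjusted p = 2.65e-05) and *NOP56* (-0.85) lie on chromosome XII, and *NOP10* (-0.79), *SNU13* (-0.77) and *NOP58* (-0.59) elsewhere. Mitochondrial ribosome genes had 20 positive and 1 negative call of 67 (median 0.28), and 12 and 0 under the equal-sum scaling, led by *IMG1*, which was 168, 165 and 154 FPKM at 50G and 101, 100.5 and 79.8 at 500G in WT cells, and 131, 135 and 142 at 50G and 122, 124 and 134 at 500G in *ulp2* null cells and had 0.69 (SE 0.13, adjusted p = 0.00314). Their median passage change was -0.39 in WT and -0.11 in *ulp2* null cells.

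The snoRNA genes, whose RNAs guide ribosomal RNA modification, had the largest median of any list of 5 or more genes, 1.14 over 71 genes, with 56 of them above 0. Only *SNR56* and *SNR81* were called for the interaction by limma (2 positive, 0 negative). At an unadjusted p under 0.05, 14 were positive and 0 negative. These 14 were all among the 64 snoRNA genes outside chromosomes I and XII, where 941 of all 5269 genes were positive. Of the 64, 27 had a called rise with passage in *ulp2* null cells and 2 in WT cells, and 0 fell in either. Among the 5269 genes 1500 and 1193 rose, and 1246 and 1068 fell. At 500G, 4 of the 64 were called higher in *ulp2* null cells and 0 lower, against 263 and 355 of the 5269. Most snoRNAs are known to lack a poly(A) tail, and the labels name polyA RNA where the study's methods name total RNA; the part of RNA selection in these levels was not tested. The median log2(FPKM + 1) of the list was 7.003, 6.38 and 5.76 for WT 50G, 6.77, 6.601 and 5.93 for WT 500G, 6.93, 6.45 and 6.45 for *ulp2* null 50G and 7.61, 8.34 and 6.89 for *ulp2* null 500G. The lowest *ulp2* null 500G library thus lay within the range of the others. *SNR81* was 85.5, 49.3 and 25.4 FPKM at 50G and 61.1, 53.4 and 42.4 at 500G in WT cells, and 26.2, 30.5 and 52.2 at 50G and 194, 234 and 93.6 at 500G in *ulp2* null cells, and its interaction was 2.07 (SE 0.63, adjusted p = 0.0363). *SNR56* was listed at 0 in 6 libraries, at 175, 286 and 236 in *ulp2* null 500G cells, and its value rests on those zeros. Leaving out single libraries gave 0 to 7 positive snoRNA genes, 7 without *ulp2* null 500G replicate 3. On chromosome XII *SNR61* (1.61), *SNR55* (-2.00), *SNR57* (-0.41) and *SNR30* (-0.71), and elsewhere *SNR60* (0.40), were not called, with standard errors between 0.64 and 3.88.

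Of the 11 SUMO pathway genes 0 were called by limma, and 0 had an unadjusted p under 0.05. *UBC9* was 81.7, 86.7 and 86.9 FPKM at 50G and 122, 120.2 and 102 at 500G in WT cells, and 95.6, 102 and 90.1 at 50G and 111, 104 and 110.2 at 500G in *ulp2* null cells, and its interaction was -0.25 (SE 0.11, adjusted p = 0.147), and *UBA2*, a subunit of the E1 enzyme, had 0.24 (SE 0.12, adjusted p = 0.18). *BUB1* (-0.28, SE 0.18, adjusted p = 0.315) and *IFM1* (0.24, SE 0.18, adjusted p = 0.384) were not called either. *CCR4*, the deadenylase of the CCR4-NOT complex on chromosome I, was 34.2, 39.01 and 37.7 FPKM at 50G and 43.01, 51.3 and 49.9 at 500G in WT cells, and 45.1, 50.4 and 58.4 at 50G and 37.04, 43.7 and 44.2 at 500G in *ulp2* null cells, and its interaction was -0.66 (SE 0.16, adjusted p = 0.0112). The complex had 2 negative calls of 10 genes, the other being *CAF130* (-0.40). The wall protein gene *CCW12*, on chromosome XII, had -0.23 (SE 0.18, adjusted p = 0.424) and *HST3*, a histone deacetylase gene, 0.37 (SE 0.15, adjusted p = 0.0962). *SIR2* was the called sirtuin gene (0.73, SE 0.16, adjusted p = 0.00745).

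Further lists stayed near the background or, over all chromosomes, held calls in both directions. The proteasome had 2 positive and 2 negative calls of 36 genes and a median of 0.01, the phosphate regulon 2 and 1 of 16 (*PHO5* 0.76, *PHO89* -0.67), the zinc regulon 0 and 1 of 6 (*ZRT2*, on chromosome XII, -0.85), and tRNA synthetases 1 and 3 of 18. Translation factors had 1 and 4 of 30, with *YEF3* on chromosome XII (-0.71) and *EFT2* on chromosome IV (-0.40) negative. Redox defence genes had 7 positive and 2 negative calls of 22 (median 0.22), both negative ones on chromosome XII. Outside chromosomes I and XII the counts were 7 and 0 of 20 (median 0.24), above the 11.4% positive of all genes there. Superoxide dismutase *SOD1* (0.91, SE 0.14, adjusted p = 0.00103) and peroxiredoxin *TSA1* (0.69, SE 0.08, adjusted p = 0.000269) were positive and the peroxiredoxin gene *AHP1*, on chromosome XII, was negative (-1.04). General stress genes had 7 and 3 of 22 (*PAI3* 0.78, *SPI1* -0.78). Ergosterol synthesis had 6 and 3 of 24 (*ERG6* 0.65, *UPC2* -0.70), and 6 and 1 of 21 outside chromosomes I and XII. Sulfur amino acid synthesis had 3 and 3 of 27 (*MET13* 0.81), and 3 and 1 of 21 outside them. Purine synthesis had 1 and 7 of 21, with 6 of the 7 on chromosomes I and XII. Pyrimidine synthesis had 3 and 1 of 9, and 3 and 0 of 8 outside these chromosomes. In the last, *URA2* was 50.3, 43.8 and 43.8 FPKM at 50G and 55.9, 51.1 and 51.9 at 500G in WT cells, and 82.1, 77.5 and 71.2 at 50G and 146, 134 and 128.04 at 500G in *ulp2* null cells, higher in *ulp2* null cells at both passages, and had 0.62 (SE 0.12, adjusted p = 0.00349). Cell wall proteins had 6 and 4 of 24, with *PIR3* (0.74) and *GAS1* (0.65) positive.

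Mating genes had 4 positive and 1 negative call of 20. *STE2*, the receptor for α-factor, was 45.6, 39.6 and 35.5 FPKM at 50G and 29.6, 20.5 and 24.6 at 500G in WT cells, and 52.96, 40.99 and 41.3 at 50G and 45.4, 46.8 and 45.7 at 500G in *ulp2* null cells, and its interaction was 0.72 (SE 0.20, adjusted p = 0.0243), and *MFA2* (1.13) and *BAR1* (0.61) were positive too. The calls of *STE2*, *MFA2* and *BAR1* held in 8, 4 and 5 of the 12 fits that leave out 1 library, and that of *BAR1* was lost under the equal-sum scaling (adjusted p = 0.0549). These a-cell genes fell in WT cells with passage, the summed FPKM of 5 a-cell markers being between 1462 and 1975 at 50G and between 771.5 and 1049 at 500G. In *ulp2* null cells it was between 1788 and 1936 at 50G and between 1280 and 1678 at 500G. The sum over 5 α-cell markers was between 42.4 and 66.99 in all 12 libraries. The sum over 5 sporulation genes was between 122.8 and 162.6 at 50G and between 200.3 and 305.5 at 500G, in both cases mostly *IME1*. The part of mating type in these differences was not tested.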

How the data were processed

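The 12 libraries were sequenced from yeast cultures, 3 in each of 4 groups given by the labels. The authors aligned stranded reads to Ensembl R64-1-1 with TopHat2 2.1.1, kept uniquely aligned reads and deposited FPKM values per gene made with Cuffdiff of Cufflinks 2.2.1. The labels name polyA RNA and the study's methods total RNA. No column of per-sample values was left unused.

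Genes that averaged 1 FPKM or more over the libraries were tested on log2(FPKM + 1) with limma 3.58.1 in R 4.3.3, in a linear model over the 4 groups with an empirical Bayes trend. limma stands in for the Cuffdiff test, which has no interaction term. Adjustment of the p-values (Benjamini-Hochberg) spanned every gene tested, at a threshold of 0.05. The tests were checked on simulated data. Members and gene lists were chosen with earlier results of these data known. Named genes were the 12 largest interactions in each direction with a mean FPKM of at least 10 that were called in every fit leaving out 1 library, the 5 largest opposite passage changes, up to 4 members of each list by adjusted p-value, and genes that the study names. RP, *ULP2* and marker genes were left out of the first rule. Alternatives were 2 scalings, another pseudocount, other filters, no variance trend, a stricter threshold, a replicate block, chromosomes I and XII or RP genes left out and each library left out. Promoter windows were read from the R64 assembly and searched on both strands.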

Additional observations from a re-analysis of the deposited data

Results flagged for a closer look

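A difference between the strains in their passage effect, tested as the interaction with limma, was called for 640 positive and 740 negative genes other than RP genes.

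Among them, 5 genes had the largest called passage changes of opposite sign in the 2 strains, rising in WT and falling in *ulp2* null cells. The interaction was -3.09 for *FIT3*, -2.73 for YPR145C-A, -2.80 for *TIS11*, -1.88 for YLR339C and -1.42 for *FIT2*, each tested by the interaction itself. The WT rise of *TIS11* was not called under the equal-sum scaling (0.38, adjusted p = 0.0547). *TIS11* lies on chromosome XII, and the study lists YLR339C beside the RP gene *RPP0* on a fragment of that chromosome. All 5 calls held in each of the 12 fits that leave out 1 library.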

How the results depend on the processing

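The 8 counts over all genes kept their size to within 1.5 times with a pseudocount of 0.1, without the filter on low values, with a mean FPKM of at least 10, without the variance trend, with median-of-ratios scaling and without RP genes. Without chromosomes I and XII, calls fell from 1380 to 907, positive calls from 640 to 573 and negative calls from 740 to 334. Negative calls over 2-fold fell from 156 to 77 and opposite passage changes from 147 to 86. Strain differences at 50G only fell from 975 to 582. The chromosomes left out held 596 of the 6435 genes, 385 of the 1380 calls and 372 of the 740 negative calls. With an adjusted p under 0.01 there were 769 calls, 337 positive and 432 negative, 50 opposite passage changes, 602 strain differences at 50G only and 53 at 500G only. The equal-sum scaling left 78 opposite passage changes, and the cause was not tested. Leaving out 1 library gave 1094 to 1394 calls, 496 to 681 positive and 598 to 728 negative, 66 to 83 positive and 144 to 176 negative over 2-fold, 96 to 149 opposite passage changes, 798 to 1010 strain differences at 50G only and 90 to 142 at 500G only. Of the genes chosen by the naming rule 152 were called, 132 of them in every fit that leaves out 1 library, and 0 changed sign in their interaction under any alternative run. Counts of calls in single gene lists moved more often. Without the filter on low values 83 of them stayed within 1.5 times, 5 were lower (positive snoRNA genes from 2 to 0) and 2 higher (negative RNA polymerase I and III genes from 2 to 4), with median-of-ratios scaling 2 were lower and 7 higher, and with the equal-sum scaling 11 were lower and 3 higher.

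Libraries of the same number share only that number: correlations of their deviations from the group means were above 0.1 in all 3 pairs only for WT 50G with *ulp2* null 500G (0.141, 0.115 and 0.135). With the replicate block there were 254 opposite passage changes, 267 strain differences at 500G only and 15 positive snoRNA genes. The depth of the libraries is unknown, which limits what can be said of genes at low FPKM.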
